A study of Mus musculus with 6 samples.

Results

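Apoe, Clu, Abca1, Abcg1, Fabp5, Fabp7, Lrp1, Lpl and Cd36 encode proteins that package, release, take up or carry lipids. These 9 genes were chosen by name for that role, out of the 37620 genes counted in the ribosomal profiling, and 8 of the 9 passed the low-count filter used for testing. In the brain, astrocytes secrete lipoprotein particles built on apolipoprotein E and clusterin. ABC transporters load these particles with cholesterol and phospholipid, receptors of the LDL receptor family take them up, and small fatty acid binding proteins carry the fatty acids inside the cell. Radial-glial neural stem cells (RGLs) and astrocytes share much of this machinery, and Fabp7, also called brain lipid binding protein, is a classic radial glia gene.

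The samples were RiboTag pulldowns from the dentate gyrus, in which an anti-HA antibody captures ribosomes carrying HA-tagged RPL22 together with their mRNAs. The Klf9 f/f samples came from Gli1CreERT2:Rpl22HA f/+:Klf9 f/f mice, in which tamoxifen (TAM) removes the first exon of Klf9, a Krüppel-like zinc finger transcription factor. The Klf9 +/+ samples came from Gli1CreERT2:Rpl22HA f/+:Klf9 +/+ mice, and the sample names call the groups knock down and wild type. Both groups therefore carried the Gli1CreERT2 driver and the RiboTag allele, and both received 3 TAM injections of 250 mg/kg, given 12 hr apart at 2 to 3 months of age. Each group held 3 samples, collected 4 days after the last injection, and a sample was a pool of 6 dentate gyri (3 mice). The driver follows Gli1 and recombines in astrocytes as well as in RGLs, so the labelled source, RGLs, covers a mixed population. In each genotype, the library names place replicates 1 and 2 in a series YTa22 and replicate 3 in a series YTa32. The replicate numbers are running numbers that pair no samples, and p-values here measure only the spread between these pools.

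Reads counted on genes ranged from 52188635 to 66343759 per sample in YTa22 and were 21594714 and 27594529 in YTa32. The study's methods give fewer reads per sample than the YTa22 counts hold, and the counts were used as deposited. Many genes separated by series, including Fabp5, Fabp7, Lpl, Abcg1 and Lrp1 but not Apoe, Clu and Abca1, so the genotype difference of each of the 8 genes tested is also given within each series. Klf9 itself was lower in all 3 Klf9 f/f samples, at 114.3 to 121.3 CPM (counts scaled to the library size), than in the Klf9 +/+ samples, at 139.0 to 203.9 CPM. Its log2 fold change (Klf9 f/f over Klf9 +/+) was -0.59 with a standard error (SE) of 0.15, and the difference was -0.78 within YTa22 but -0.21 within YTa32. The deposited count covers the whole gene, so reads from exons that stay in place are included. By the paper's own estimates, Klf9 also recombined in only part of the targeted cells. How much each adds to the Klf9 level left here was not tested.

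Krüppel-like factors bind GC-rich boxes, and the letters of these boxes were looked for in the 250 bases before the RefSeq start sites (GRCm38.p6), which were matched for 5 of the 9 genes. Clu, Abcg1, Fabp5 and Lpl were the others. One motif was the GC box, spelled GGGCGG, and the other was the shorter CACCC. Both strands were searched, and the matches of one motif did not overlap those of the other. Of 32851 such windows over all genes, 32.7% had a GC box and 52.0% had the shorter motif. The windows of the most abundant member, of an efflux transporter, of the radial glia gene and of a receptor are shown, 5′ to 3′ on the strand of the gene, with the matched letters in capitals.
Apoe: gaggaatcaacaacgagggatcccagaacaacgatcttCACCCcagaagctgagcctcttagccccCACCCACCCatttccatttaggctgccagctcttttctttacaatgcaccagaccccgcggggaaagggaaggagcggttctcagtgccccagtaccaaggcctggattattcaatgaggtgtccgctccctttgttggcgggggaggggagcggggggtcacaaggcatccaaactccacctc
Abca1: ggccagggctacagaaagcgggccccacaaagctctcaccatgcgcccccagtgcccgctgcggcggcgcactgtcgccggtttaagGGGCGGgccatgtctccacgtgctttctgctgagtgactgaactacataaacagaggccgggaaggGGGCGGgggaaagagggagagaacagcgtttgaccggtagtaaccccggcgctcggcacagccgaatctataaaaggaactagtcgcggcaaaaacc
Fabp7: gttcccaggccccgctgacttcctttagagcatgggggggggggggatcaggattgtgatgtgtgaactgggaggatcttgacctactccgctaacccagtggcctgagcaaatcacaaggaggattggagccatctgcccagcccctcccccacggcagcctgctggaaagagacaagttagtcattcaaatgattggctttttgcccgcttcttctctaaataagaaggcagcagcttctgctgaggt
Lrp1: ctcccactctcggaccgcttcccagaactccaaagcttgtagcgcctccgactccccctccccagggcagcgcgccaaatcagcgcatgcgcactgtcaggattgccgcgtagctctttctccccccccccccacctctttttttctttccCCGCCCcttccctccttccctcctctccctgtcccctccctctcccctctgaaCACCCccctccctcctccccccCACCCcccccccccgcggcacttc
The Apoe window (chr7:19699189-19699438, minus strand) held 0 GC boxes and 3 matches of the shorter motif. Of the 2 windows at other Apoe start sites, not shown, 1 held 0 of either and the other 0 GC boxes and 3 of the shorter motif. For comparison, the Abca1 window (chr4:53159896-53160145, minus strand) held 2 GC boxes and 0 of the shorter motif. The Fabp7 window (chr10:57784673-57784922, plus strand) held 0 of either. The Lrp1 window (chr10:127621149-127621398, minus strand) held 1 GC box and 2 of the shorter motif, and the Cd36 window, not shown, held 2 and 0. These are matches of letters in a fixed window, and no binding was measured in these samples.

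The levels of the 9 genes ran from the top of the profile to near 0 when set per length, as CPM per kilobase of annotated exons (RPKM). By the median over the 6 samples, the order was Apoe at 5965 RPKM, Clu at 1123, Fabp7 at 451, Fabp5 at 154, Lrp1 at 11.1, Abca1 at 8.06, Abcg1 at 3.03, Lpl at 1.56 and Cd36 at 0.048. Only the neighbours Fabp7 and Fabp5 had overlapping ranges, at 186 to 642 and 64.8 to 192 RPKM. Per base of the longest coding transcript the order was the same. The exons of the 9 genes share 0 bases with other annotated genes, so the lack of strand in the counting does not mix them with a neighbour. Thus the secreted lipid carriers and the intracellular fatty acid carriers stood far above the receptor, the transporters and the lipase, and the fatty acid receptor Cd36 was close to 0.

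**Figure D1:**
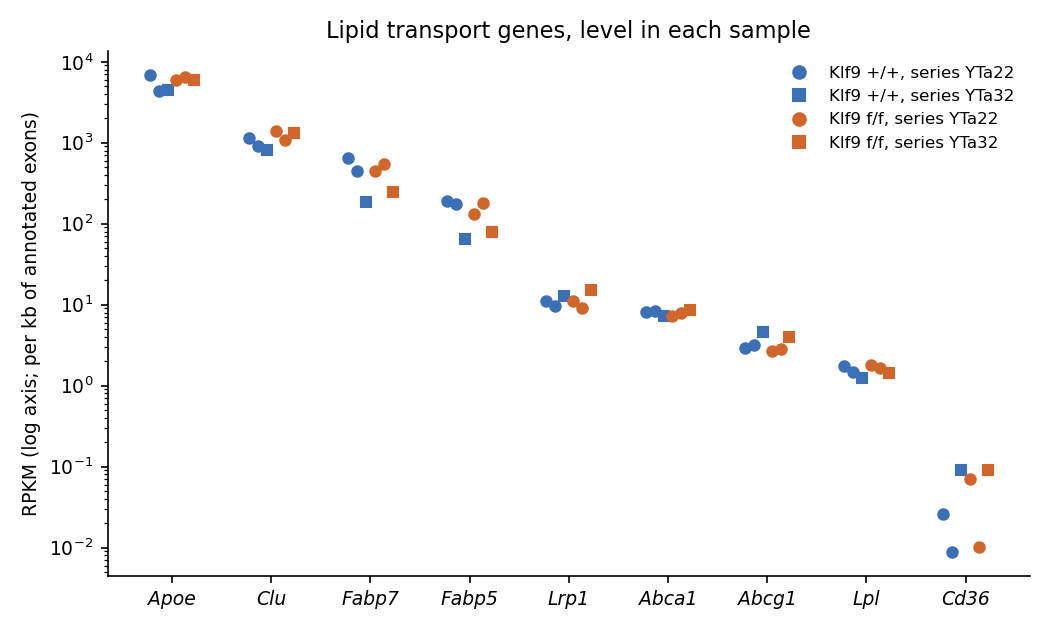
RPKM of each gene (log axis) in each of the 6 samples, with circles for series YTa22, squares for series YTa32, blue for Klf9 +/+ and orange for Klf9 f/f. Apoe and Clu lead in every sample, Cd36 lies below 0.1 RPKM in all 6, and the squares of Fabp5 and Fabp7 lie below the circles in both genotypes.

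The genotype comparison asked whether ribosome-bound mRNA of these genes differed after induced, partial deletion of Klf9 in adult Gli1-lineage cells. Of the 8 genes tested, Clu alone was called at the threshold of the study's methods, a change of at least 1.2-fold with an unadjusted p under 0.05. Across all 15056 genes tested, 4.32% were called, 1.82% as higher and 2.5% as lower in Klf9 f/f. After Benjamini-Hochberg adjustment of edgeR's quasi-likelihood test, 0 genes of any kind had an adjusted p under 0.05, while 650 had an unadjusted p under 0.05. At that adjusted threshold the likelihood-ratio test of edgeR gave 58 genes and DESeq2 gave 39. In simulated counts with 0 genes changed, the call rule picked 738 of 14865 genes, a share no smaller than the 4.32% here. The log2 fold changes of the 8 genes ran from -0.17 to 0.41 with a median of 0.05, against a median of 0.00084 over all genes tested. For 5 of the 8 the difference was smaller than its own SE.

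**Figure D2:**
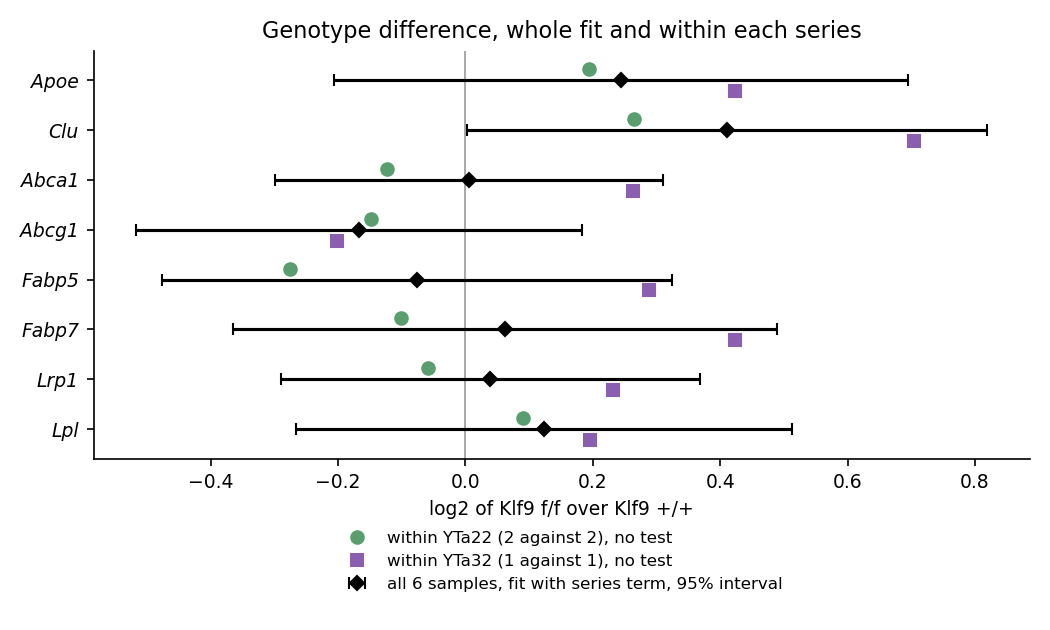
Log2 fold change, Klf9 f/f over Klf9 +/+, of the 8 genes tested: black diamonds with 95% intervals from the fit to all 6 samples, green circles within YTa22 (2 samples against 2) and purple squares within YTa32 (1 against 1). The interval of Clu starts just above 0, the other 7 intervals span 0, and Abca1, Fabp5, Fabp7 and Lrp1 have their series values on opposite sides of 0.

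Clu and Apoe, which encode apolipoproteins of astrocyte lipoproteins, were among the most abundant ribosome-bound mRNAs of the whole profile. Clu (ENSMUSG00000022037, chr14:66587320-66600385 of mm9, plus strand), which encodes the secreted chaperone clusterin or apolipoprotein J, ranked between 9 and 14 of all genes by CPM. Its levels were 3972, 3119 and 2783 CPM in the Klf9 +/+ replicates, named in the order 1, 2 and 3 here and below, and 4770, 3752 and 4533 CPM in the Klf9 f/f replicates. The groups overlapped, since Klf9 f/f replicate 2 lay below Klf9 +/+ replicate 1. The means were 3291 ± 613 CPM in Klf9 +/+ and 4352 ± 533 CPM in Klf9 f/f (SD, n = 3 each). The log2 fold change was 0.41 (SE 0.18, 95% interval 0.0029 to 0.82), with an unadjusted p of 0.0487 that became 1.00 after Benjamini-Hochberg adjustment of the quasi-likelihood test of edgeR. The difference was 0.27 on the log2 scale within YTa22 and 0.70 within YTa32. In YTa22, replicate 2 lay 0.35 below replicate 1 in each genotype, which is more than the genotype difference of that series.

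The call of Clu depended on the samples and the settings. It was lost in 8 of 13 alternative analyses, over all of which the log2 fold change stayed between 0.26 and 0.56. These 8 are not separate, since YTa22 alone and the fits without either replicate 3 rest on the same YTa22 samples. Leaving out Klf9 f/f replicate 3 or Klf9 +/+ replicate 3 gave 0.27 and 0.26, leaving out Klf9 f/f replicate 1 or Klf9 +/+ replicate 2 gave 0.35 each, and none of these 4 fits called Clu.

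Apoe (ENSMUSG00000002985, chr7:20281458-20284515 of mm9, minus strand), the main lipid-carrying apolipoprotein of the brain, was first or second of all genes by CPM in every sample and took 0.835% to 1.29% of all counts. It stood at 13743, 8550 and 8764 CPM in the Klf9 +/+ replicates and at 11872, 12951 and 11750 CPM in the Klf9 f/f replicates. The highest sample of all was thus Klf9 +/+ replicate 1, and the other 2 Klf9 +/+ samples were the lowest. With a log2 fold change of 0.24 (SE 0.20, 95% interval -0.21 to 0.70), Apoe was not called. Within YTa22 the difference was 0.19, while the 2 Klf9 +/+ samples of that series differed from each other by 0.68. Within YTa32 it was 0.42. Without Klf9 +/+ replicate 1 the log2 fold change was 0.49, and Apoe was then called.

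Markers of astrocytes were higher on average in Klf9 f/f. By sample, their sum was highest in Klf9 f/f replicate 3, where Apoe was the lowest of the Klf9 f/f samples. The summed level of 14 astrocyte markers, Aqp4 and Slc1a3 among them and neither Apoe nor Clu included, ran from 13180 to 16430 CPM in Klf9 +/+ and from 16310 to 20170 CPM in Klf9 f/f. All 14 had a positive log2 fold change, as did 7553 of all 15056 genes tested. Of the 14, 5 were called as higher, against 1.82% of all genes tested. Set against this sum in the same sample, Clu was 22.6% ± 2.39 in Klf9 +/+ and 23.4% ± 1.21 in Klf9 f/f (SD, n = 3 each). Apoe was 70.3% ± 11.6 and 66.4% ± 11.4 (SD, n = 3 each). Relative to the astrocyte markers, neither Clu nor Apoe differed between genotypes by more than the spread between samples. The other 6 genes tested had lower mean shares of this sum in Klf9 f/f, where the sum itself was higher. Abca1 was 0.566% ± 0.0745 in Klf9 +/+ and 0.445% ± 0.0568 in Klf9 f/f (SD, n = 3 each), and every Klf9 f/f value lay below every Klf9 +/+ value, which held for 12.4% of all genes tested. For Lrp1 the shares were 1.38% ± 0.225 and 1.11% ± 0.197 (SD, n = 3 each), and the samples overlapped. The 14 markers do not fully separate astrocytes from RGLs, since Gfap, which the paper used to identify RGLs, is among them. In such pooled tissue, fewer or more cells of a type and less or more RNA per cell cannot be told apart.

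**Figure D3:**
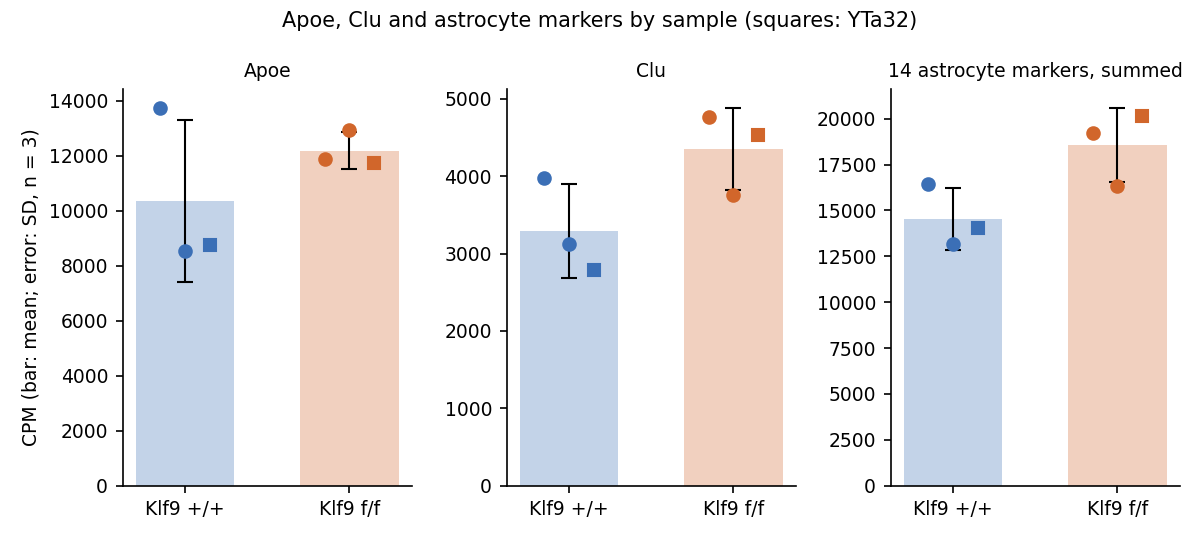
CPM of Apoe, of Clu and of 14 summed astrocyte markers in each sample (points; squares are series YTa32), with the mean of each genotype as a bar and the SD (n = 3) as the error. Clu and the marker sum have the same highest Klf9 +/+ sample and the same lowest Klf9 f/f sample. They differ in the lowest Klf9 +/+ sample and in the highest Klf9 f/f sample. The Apoe points of Klf9 +/+ enclose those of Klf9 f/f.

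Neither efflux transporter was called. Abca1 (ENSMUSG00000015243, chr4:53043659-53172767 of mm9, minus strand) hands cholesterol and phospholipid to lipid-poor apolipoproteins. It stood at 85.0, 85.9 and 74.3 CPM in the Klf9 +/+ replicates and at 75.1, 82.1 and 89.1 CPM in the Klf9 f/f replicates, the narrowest span of the 9 genes. Its log2 fold change was 0.0057 (SE 0.14), and the 95% interval ran from -0.30 to 0.31. The series had opposite signs, at -0.12 within YTa22 and 0.26 within YTa32, and the test of that difference gave 0.38 (SE 0.34, unadjusted p = 0.278 for the interaction term in edgeR).

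Abcg1 (ENSMUSG00000024030, chr17:31194643-31252722 of mm9, plus strand), which passes sterol on to particles that already hold lipid, was the less abundant of the pair per length. Its levels were 11.7, 13.0 and 18.9 CPM in the Klf9 +/+ replicates and 10.8, 11.4 and 16.4 CPM in the Klf9 f/f replicates. All Klf9 f/f samples lay below the Klf9 +/+ samples of their own series, which held for 5.53% of all genes tested. The log2 fold change was -0.17 (SE 0.15, 95% interval -0.52 to 0.18) and was not called. The differences were -0.15 within YTa22 and -0.20 within YTa32. Both YTa32 samples lay above the 4 YTa22 samples, so the pooled samples of the genotypes overlapped. The ratio of Abca1 to Abcg1 counts was 6.62 to 7.26 in the YTa22 samples, against 3.94 and 5.44 in Klf9 +/+ and Klf9 f/f replicate 3.

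The fatty acid binding proteins Fabp5 and Fabp7 differed between the series far more than between the genotypes. Fabp7 (ENSMUSG00000019874, chr10:57504687-57508256 of mm9, plus strand) binds long-chain polyunsaturated fatty acids in radial glia and astrocytes. It stood at 802, 560 and 232 CPM in the Klf9 +/+ replicates and at 567, 689 and 311 CPM in the Klf9 f/f replicates. The genotypes overlapped within YTa22, and replicate 3 was the lowest of each genotype. The log2 fold change was 0.06 (SE 0.19, 95% interval -0.37 to 0.49), with -0.10 within YTa22 and 0.42 within YTa32.

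Fabp5 (ENSMUSG00000027533, chr3:10012548-10016607 of mm9, plus strand) binds saturated and unsaturated fatty acids in many cell types, epidermis and neural progenitors among them. Its levels were 686, 633 and 231 CPM in the Klf9 +/+ replicates and 464, 639 and 282 CPM in the Klf9 f/f replicates. For Fabp5 the log2 fold change was -0.08 (SE 0.18, 95% interval -0.48 to 0.32), with -0.27 within YTa22 and 0.29 within YTa32. Of the 50-base runs of its mRNA, the length of the reads, 43.4% have an exact copy at 6 other places of the mm9 genome. Reads placed at several sites were not counted, so the level of Fabp5 may be understated, and its order against Fabp7 is uncertain.

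The 2 genes had a similar course over the 6 samples, with the largest step between the series. Within YTa22, Klf9 +/+ replicate 2 differed from replicate 1 by -0.52 for Fabp7 and -0.12 for Fabp5 on the log2 scale. The ratio of Fabp7 to Fabp5 counts was 1.17, 0.885 and 1.01 in the Klf9 +/+ replicates and 1.22, 1.08 and 1.10 in the Klf9 f/f replicates. The YTa22 samples were 2.41-fold above the YTa32 samples for Fabp7 and 2.35-fold for Fabp5. Both YTa32 samples lay below all 4 YTa22 samples, which held for 28.3% of all genes tested. Among the 10383 genes with a mean of 10 CPM or more, the genes nearest to Fabp7 in their centred log2 CPM over the 6 samples were Ndufc2 and Npy, with root-mean-square differences of 0.069 and 0.090. The nearest to Fabp5 were Magoh and 5430416N02Rik, at 0.069 and 0.075. Fabp5 ranked 57 in nearness to Fabp7 and Fabp7 ranked 109 in nearness to Fabp5, at 0.15. The samples share library series and depth in all these genes, and the likeness is a description.

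Of these 4 nearest genes, the 3 with an annotated coding transcript have short ones, as Fabp5 and Fabp7 do, and 5430416N02Rik has none. The longest coding transcript is 880 bases for Fabp7 and 987 for Fabp5, and it is 692 for Magoh, 683 for Ndufc2 and 566 for Npy. Among 521 genes of 10 CPM or more with a transcript under 1000 bases, the median log2 difference of YTa32 from YTa22 was -0.91, against -0.46 for 2025 genes of 1000 to 2000 bases. For the 2948 genes of 4000 to 8000 bases it was 0.32. Fabp7 and Fabp5, at -1.27 and -1.23, lay below the interquartile range of their length class, which ran from -1.07 to -0.73. Apoe and Clu, at -0.19 and -0.12 with transcripts of 1386 and 1811 bases, lay above that of theirs, which ran from -0.69 to -0.23. What set the series apart was not tested.

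**Figure D4:**
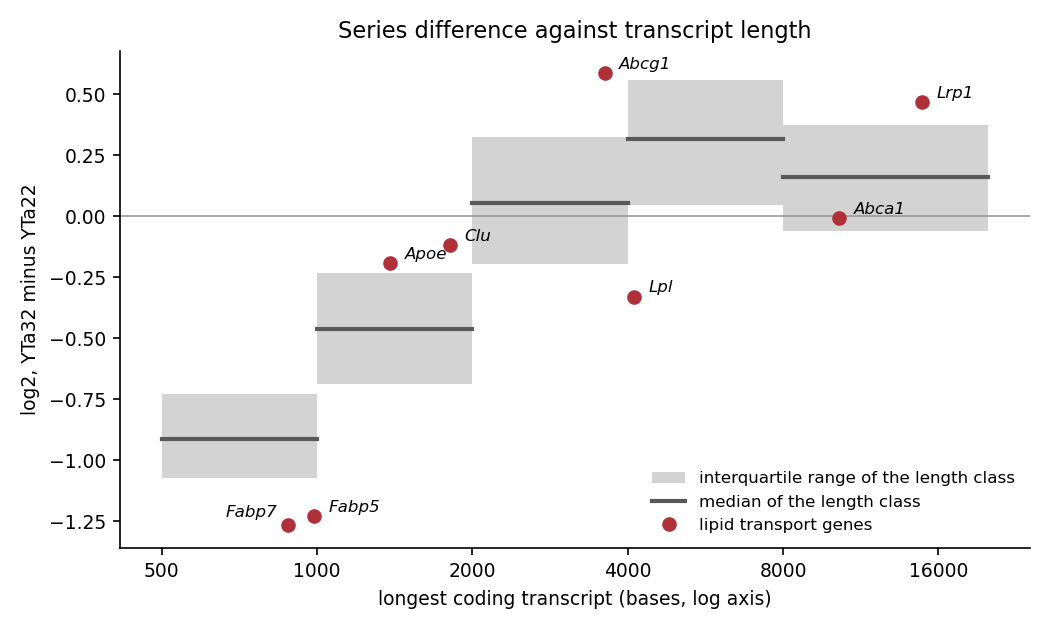
Log2 difference of the YTa32 samples from the YTa22 samples (vertical axis) against the longest coding transcript in bases (horizontal log axis), for the 8 genes tested (red), with the median (dark line) and interquartile range (grey) of all genes of 10 CPM or more per length class. Fabp5 and Fabp7 lie lowest, at the short end, and Abcg1 and Lrp1 lie highest.

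Uptake was represented by Lrp1, Lpl and Cd36. Lrp1 (ENSMUSG00000040249, chr10:126975217-127058204 of mm9, minus strand) is a large endocytic receptor for particles that carry apolipoprotein E. Its levels were 199, 169 and 230 CPM in the Klf9 +/+ replicates and 194, 160 and 269 CPM in the Klf9 f/f replicates. Both YTa32 samples lay above the YTa22 samples, as for Abcg1, which held for 25.5% of all genes tested. The log2 fold change was 0.04 (SE 0.15, 95% interval -0.29 to 0.37), with -0.06 within YTa22 and 0.23 within YTa32.

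Lpl (ENSMUSG00000015568, chr8:71404390-71431347 of mm9, plus strand) encodes the lipoprotein lipase that frees fatty acids from triglyceride-rich particles. It stood at 11.8, 10.2 and 8.40 CPM in the Klf9 +/+ replicates and at 12.2, 11.1 and 9.62 CPM in the Klf9 f/f replicates. The groups overlapped, with a log2 fold change of 0.12 (SE 0.17, 95% interval -0.27 to 0.51) and differences of 0.09 within YTa22 and 0.19 within YTa32.

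Cd36 (ENSMUSG00000002944, chr5:17287508-17394777 of mm9, minus strand) is a scavenger receptor and fatty acid translocase of macrophages, endothelium and muscle. It had 5, 2 and 11 reads in the Klf9 +/+ replicates and 18, 2 and 8 reads in the Klf9 f/f replicates. It did not pass the filter of more than 1 CPM in at least 1 sample, and its highest level was 0.359 CPM. In the fit without the low-count filter its log2 fold change was 0.78 (SE 0.76). No genotype difference was detectable at this level.

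The 7 genes not called are not shown to be unchanged, since their intervals reach up to 0.70 and down to -0.52 on the log2 scale. For the interaction of genotype and series, 0 of the 8 had an unadjusted p under 0.05, against 1.53% of all genes tested. With a single sample per genotype in YTa32, this test had 2 residual degrees of freedom, and the smallest of the 8 p-values was 0.195, that of Fabp5, from edgeR's quasi-likelihood test.

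The wider lipid transport machinery was followed through 92 genes in 6 lists, which hold the 9 genes too. Of these, 72 were tested, with 5 called as higher and 1 as lower in Klf9 f/f, or 8.33% against 4.32% of all genes tested. The median log2 fold change of the 72 was 0.05, and 0 of them passed after adjustment. Lcat, which esterifies cholesterol on lipoproteins, had a log2 fold change of 0.35 (SE 0.13) and Mgll, which cleaves monoacylglycerol, one of 0.37 (SE 0.14). Plin3, a lipid droplet coat protein, and Slc27a1, a fatty acid transporter with acyl-CoA synthetase activity, were each at 0.32 (SE 0.13). Clu was the fifth of the genes called as higher. The median log2 fold change of the 14 astrocyte markers was 0.36. Lcat, Mgll, Plin3 and Slc27a1 were not set against those markers sample by sample. The gene called as lower was Mylip, the ubiquitin ligase that directs LDL receptors to degradation, at -0.61 (SE 0.23).

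For Lcat, the levels were 125.4, 108.9 and 103.6 CPM in the Klf9 +/+ replicates and 158.6, 137.8 and 133.4 CPM in the Klf9 f/f replicates. For Plin3 they were 140.9, 117.6 and 121.6 CPM against 169.5, 158.5 and 148.0 CPM. The genotypes separated within each series for Lcat, Plin3, Mgll, Slc27a1 and Mylip, but not for Clu. Over all genes tested, such a separation was seen for 7.78% as higher and 5.53% as lower in Klf9 f/f. All 6 calls were lost in series YTa22 alone and without the series in the model, while the folds kept their direction and mostly their size. Lcat was at 0.33 and 0.35 on the log2 scale in these 2 fits, Plin3 at 0.34 and 0.32, Mgll at 0.32 and 0.36, Slc27a1 at 0.24 and 0.33, and Mylip at -0.47 and -0.67. Without Klf9 +/+ or Klf9 f/f replicate 3 none of the 72 genes was called. Without Klf9 f/f replicate 1 there were 2 calls up and 7 down, and without Klf9 +/+ replicate 1 there were 8 up and 1 down. Without Klf9 +/+ replicate 2 there were 1 up and 5 down, and without Klf9 f/f replicate 2 there were 4 up and 0 down.

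By list, 6 of the 14 genes listed as apolipoproteins were tested. They had 1 call up and 0 down, with a median log2 fold change of 0.06. Apod, the third most abundant of them per length, was at -0.35 (SE 0.19) and was not called. Of the genes listed as lipoprotein receptors and their partners, 14 of 18 were tested, with 0 up, 1 down and a median of -0.06. The most abundant per length were Lrpap1, the chaperone of the receptor family, at -0.09 (SE 0.17), Scarb2 at 0.11 (SE 0.14) and Sort1 at 0.20 (SE 0.13). All 15 genes listed as ABC lipid transporters were tested, and 0 were called. Of them, 11 had a positive log2 fold change, as did 7553 of all 15056 genes tested, and their median was 0.14. Per length, Abcd3, Abcd2 and Abcd4 of subfamily D led them in level, with log2 fold changes of 0.15, 0.11 and 0.23, each with an SE of 0.14 to 0.18.

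Of the fatty acid binding and uptake genes, 12 of 15 were tested, with 1 up, 0 down and a median of 0.11. Dbi, the acyl-CoA binding protein, was their most abundant gene per length and stood at 4017, 2438 and 1330 CPM in the Klf9 +/+ replicates and 3154, 3439 and 1470 CPM in the Klf9 f/f replicates. With a transcript of 593 bases and a log2 fold change of 0.07 (SE 0.20), it was low in YTa32 in both genotypes, as Fabp5 and Fabp7 were. Of the lipases and remodelling genes, 10 of 14 were tested, with 2 up and 0 down and a median of 0.03. Pltp, the phospholipid transfer protein, was at -0.33 (SE 0.24). The 15 lysosomal and intracellular sterol carriers tested of 16 had 1 up and 0 down and a median of -0.01, with Npc2 at 0.01 (SE 0.15) and Gramd1a at -0.09 (SE 0.18).

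**Figure D5:**
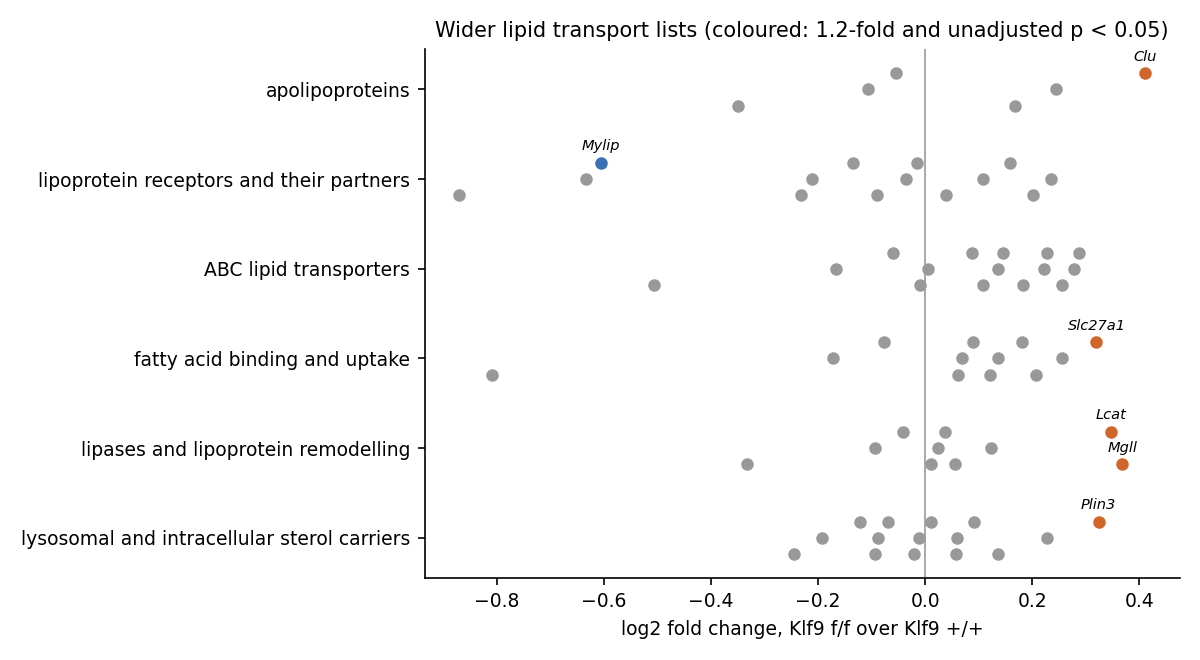
Log2 fold change, Klf9 f/f over Klf9 +/+, of the 72 genes tested in 6 lipid transport lists, 1 point per gene, shifted up or down within a list for legibility. Coloured and named points are the 5 genes called as higher (orange) and the 1 called as lower (blue); the uncalled points lie on both sides of 0.

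Markers of other cells also differed between the samples. The 18 choroid plexus markers summed to between 281 and 4264 CPM in Klf9 +/+ and between 117 and 804 CPM in Klf9 f/f, and all 18 were called as lower. The 17 endothelial markers summed to between 354 and 731 CPM and between 179 and 523 CPM, with 4 called as lower. The 12 mural cell markers summed to between 595 and 1143 and between 449 and 774 CPM, with 6 called as lower. The 15 meningeal markers summed to between 1111 and 2363 and between 671 and 1465 CPM, with 2 called as lower. The 5 blood genes summed to between 88.4 and 136 and between 39.6 and 90.5 CPM, with all 5 called as lower. Over all genes tested, 1.82% were called as higher and 2.5% as lower. Over all 6 samples, the ranges of the genotypes overlapped in all of these lists, and in those that follow. Within each series, however, the choroid plexus and blood sums were lower in every Klf9 f/f sample than in the Klf9 +/+ samples. In the choroid plexus, endothelial, mural, meningeal and blood lists, 0 markers had a positive log2 fold change, against 7553 of all 15056 genes tested. The 19 microglial markers were at 183 to 222 and 196 to 259 CPM, with 1 called as lower. The 11 radial glia markers were at 1958 to 2654 and 2238 to 2464 CPM, with 1 called as higher. The 11 granule neuron markers were at 1128 to 1388 and 1130 to 1272 CPM, with 0 called. The 15 oligodendrocyte markers were at 622 to 895 and 639 to 833 CPM, with 2 called as higher and 1 as lower. No marker was at 0 in all samples. The part of these cells in the levels of the lipid transport genes was not tested.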

How the data were processed

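Ribosome-bound mRNA was profiled in 3 Klf9 +/+ and 3 Klf9 f/f samples, grouped by the genotype in their labels. The authors deposited whole-number read counts per gene, without normalization. By the study's methods, libraries were made with the SMARTer v4 kit, and 50 bp reads were mapped with STAR to mm9 and counted without strand with HTSeq 0.6.0. Genes were named from GENCODE M1 (37205 of 37620), and 5 HTSeq summary lines were left out of library sizes and tests.

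Genes over 1 CPM in at least 1 sample were tested with the quasi-likelihood F-test of edgeR 4.0.16 (R 4.3.3), after TMM normalization, with library series as a term (3 residual degrees of freedom). CPM are given after TMM scaling. RPKM divided CPM by annotated exon length, and log2 differences within series used a prior count of 2. The SE was the size of the log2 fold change over the square root of F. Calls followed the study's methods (1.2-fold, unadjusted p under 0.05), and p-values were adjusted over all genes tested by Benjamini-Hochberg. In simulated counts of 14863 genes, 91.3% of the 196 given a log2 change of 1 were called, and with 0 genes changed there were 738 calls among 14865. No lipid transport gene tested had a fold change that large, and recovery of smaller changes was not simulated.

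The 9 genes, the gene lists and the tests were chosen with earlier results of these data known. One further lipid transport gene was left out of the lists and is not reported here. Also named were list genes that were called, the 3 highest per list by RPKM, and the 2 genes nearest to any of the 9 genes whose log2 CPM spanned over 1. The ratio to astrocyte markers, the classes of transcript length and Dbi's place among short transcripts were added after the values were seen. Repeated stretches were counted with blastn 2.17.0 on mm9. Alternatives were DESeq2 1.42.0, a likelihood-ratio test, no series term, other filters, upper-quartile normalization, YTa22 alone, each sample left out, and a prior count of 0.5. Intervals from the fit cover the spread between pools.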

Additional observations from a re-analysis of the deposited data

How the results depend on the processing

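The calls over all genes moved with the settings. Against 274 genes up, 376 down and 0 with an adjusted p under 0.05, a fit without the series term gave 50, 163 and 0, and no low-count filter gave 513, 926 and 334. The likelihood-ratio test gave 58 genes with an adjusted p under 0.05 and DESeq2 gave 39. Series YTa22 alone gave 163 up, 202 down and 13. Leaving out 1 sample at a time, the counts ran from 130 to 493 up, from 209 to 719 down and from 0 to 15 with an adjusted p under 0.05. In the lipid transport lists, with 5 genes up and 1 down, the fits without the series term and in YTa22 alone gave 0 and 0, the likelihood-ratio test gave 3 down, DESeq2 gave 2 down, no filter gave 8 down, and single samples left out gave 0 to 8 up and 0 to 7 down. Without Klf9 +/+ replicate 3 or Klf9 f/f replicate 3, the remaining YTa32 sample is absorbed by the series term, so those fits rest on YTa22.

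Of the log2 fold changes, Abca1 turned to -0.0031 with DESeq2, -0.0047 with upper-quartile normalization and -0.13 in YTa22 alone, and ran from -0.13 to 0.080 with single samples left out. Fabp7 turned to -0.025 without the series term and -0.12 in YTa22 alone, and ran from -0.12 to 0.27. Lrp1 turned to -0.062 in YTa22 alone and ran from -0.062 to 0.14, and Fabp5 ran from -0.26 to 0.10. None of these 4 was called in any of the 13 alternatives, and the cause of the turns was not tested. Clu lost its call without the series term (0.40, unadjusted p = 0.0923), with upper-quartile normalization (0.40), with the filter set at 3 samples (0.41) and in YTa22 alone (0.26). Apoe, Abcg1 and Lpl kept their direction in all 13, and Klf9 its call.

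No paired analysis was possible because the labels give no replicate numbers, and the numbers 1 to 3 used here only name samples in accession order. Cd36 was limited by its low level, with 46 reads in all samples together and at most 0.359 CPM.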
